A study of Homo sapiens with 2 samples.

Results

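The 10 genes described here encode the cytoplasmic actins (ACTB and ACTG1), 3 alpha tubulins (TUBA1A, TUBA1B and TUBA1C), 4 beta tubulins (TUBB, TUBB4B, TUBB2A and TUBB2B) and vimentin (VIM). They were chosen by name as abundant cytoskeletal genes and were found by Ensembl ID among the 57820 IDs of a ribosome profiling table; all 10 IDs are in it. The study sequenced fragments of mRNA that ribosomes protect from RNase I, in HEK293 cells, a line established from human embryonic kidney. Its 2 libraries are both controls kept in DMSO vehicle for 12 h, replicate 1 from batch 1 and replicate 2 from batch 2, so no treatment, genotype or matched mRNA level was compared here. The table gives counts of fragments of 27 to 29 nt per gene, which add up to 865838 in replicate 1 and 611266 in replicate 2. The label of the cell line could be set against 1 gene, VIM, which this line is known to express and which had counts in both libraries. Many cultured lines make vimentin, so this cannot tell HEK293 from them. Other markers were not looked for, because IDs beyond the 10 could not be paired with names.

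Actin polymerises into the thin filaments that shape the cell cortex and drive movement and division, and beta and gamma actin are made in nearly all cell types. Alpha and beta tubulin form an obligate heterodimer, the building block of microtubules, and each subunit is encoded by several genes, called isotypes, whose proteins are nearly alike. Cells are known to hold tubulin in balance partly at the ribosome: when free dimers are in excess, the factor TTC5 recognises the first residues of the nascent chain and the mRNA being translated is degraded. Vimentin forms intermediate filaments in mesenchymal cells and in many cultured lines. The counts below are footprints of ribosomes, so they follow both the amount of an mRNA and how densely it is translated, and these cannot be told apart without matched RNA measurements.

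Within each family the proteins are nearly the same, and promoter sequence is one thing that sets the gene copies apart. TUBA1B, TUBA1A and TUBA1C are consecutive protein-coding genes on chromosome 12, and TUBB2A and TUBB2B are neighbours on chromosome 6. The stretch of 100 bases before the RefSeq start of transcription is shown for ACTG1, the member with the most counts, and for the isotypes with the most and the fewest counts among the alpha tubulins (TUBA1B and TUBA1A) and among the beta tubulins above 0 (TUBB4B and TUBB2A). Sequences run 5′ to 3′ along the gene, on build GRCh38.p14, and capitals mark a match to a motif searched on both strands: TATAAA or TATATA, forms of the TATA box at which transcription is positioned, and the CArG box, which serum response factor binds. Of the 10 members, 9 matched a RefSeq window. ACTB did not, so it was not searched for these motifs and the actins cannot be compared in them.
ACTG1, chr17:81512800-81512899, minus strand: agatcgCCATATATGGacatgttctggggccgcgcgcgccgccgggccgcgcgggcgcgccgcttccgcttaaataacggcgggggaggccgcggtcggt
TUBA1B, chr12:49131396-49131495, minus strand: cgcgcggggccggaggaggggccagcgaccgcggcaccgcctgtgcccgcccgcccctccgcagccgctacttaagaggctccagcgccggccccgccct
TUBA1A, chr12:49189081-49189180, minus strand: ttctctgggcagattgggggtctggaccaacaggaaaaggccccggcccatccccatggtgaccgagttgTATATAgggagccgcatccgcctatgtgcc
TUBB4B, chr9:137241187-137241286, plus strand: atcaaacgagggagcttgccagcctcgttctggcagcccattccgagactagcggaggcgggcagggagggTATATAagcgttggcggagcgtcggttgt
TUBB2A, chr6:3157545-3157644, minus strand: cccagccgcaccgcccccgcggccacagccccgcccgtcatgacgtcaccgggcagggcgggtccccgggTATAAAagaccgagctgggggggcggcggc

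In ACTG1 the CArG box began 94 bases before the start, and this motif occurs in the same stretch of 0.578% of all 35116 RefSeq windows. TATATA began 30 bases before the start in TUBA1A and 29 bases before it in TUBB4B, and 1.65% of all windows hold it in these 100 bases. TATAAA began 30 bases before the start in TUBB2A, against a share of 4.99% of all windows. A match to TATATA was also found in 1 of the 3 RefSeq windows of TUBA1C. No match was found for TUBA1B, TUBB, TUBB2B and VIM, which says only that these letters are not in the 100 bases searched before each start. A TATA form was present in the isotype with the fewest counts and absent from the one with the most among the alpha tubulins, and present in both of the beta tubulins shown. These matches describe the sequence and are not evidence that a factor is bound there.

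The actins took the most counts of the 3 families and VIM, not divided by length. Together ACTB and ACTG1 took 3455.5 counts in replicate 1 and 2842 in replicate 2, or 3991 and 4649 CPM (counts per 1000000 counts of the library), a mean of 4320 ± 466 CPM (SD, n = 2). Their share of all counts was 0.399% in replicate 1 (exact Clopper-Pearson interval at 95%, 0.386 to 0.413) and 0.465% in replicate 2 (0.448 to 0.482). All 10 genes together held 0.655% of replicate 1 and 0.700% of replicate 2. These intervals cover counting error only, and treat amplified fragments as if each came from its own molecule. The labels do not say that the libraries came from separate cultures, so an SD over them may be partly technical.

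ACTG1 (ENSG00000184009), which encodes gamma actin, had 2155.5 counts in replicate 1 and 1885 in replicate 2, or 2490 and 3084 CPM. ACTB (ENSG00000075624), which encodes beta actin, had 1300 and 957 counts, or 1501 and 1566 CPM. The SD over the libraries was 420.2 CPM for ACTG1 and 45.4 CPM for ACTB, and ACTG1 was the higher of the 2 in each library. By mean CPM, which is not divided by length, ACTG1 ranked 15 and ACTB ranked 51 among all IDs.

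The actin proteins have the same length, so their counts were set against each other directly. ACTG1 had 1.66 times the counts of ACTB in replicate 1 (95% exact binomial interval 1.55 to 1.78) and 1.97 times in replicate 2 (1.82 to 2.13). ACTB thus held 37.6% of the actin counts in replicate 1 (36.0 to 39.3) and 33.7% in replicate 2 (31.9 to 35.4), a mean of 35.6% ± 2.79 (SD, n = 2). Gamma actin was the larger share of the deposited counts in both libraries. How fragments that match both actins or pseudogenes were counted is not given in the sources used here, and the intervals do not cover it. The intervals of the 2 libraries did not overlap, so the split differed by more than counting error. On the log2 scale the 2 libraries' ACTG1 to ACTB ratios differed by 0.25, close to the median absolute log2 ratio between libraries of 0.20 for a single ID with at least 1000 summed counts.

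**Figure D1:**
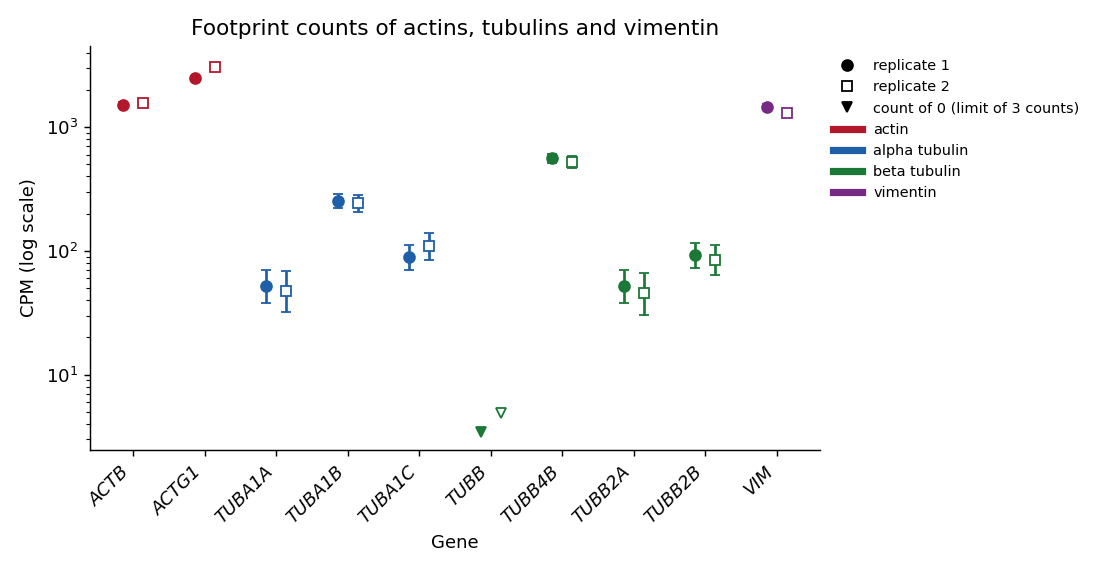
CPM of each gene on a log axis, with replicate 1 as filled circles, replicate 2 as open squares and 95% exact Clopper-Pearson intervals as bars. For a count of 0, triangles mark a fixed limit of 3 counts, which lies below the upper end of such an interval. ACTG1 stood highest at 2490 and 3084 CPM, the alpha tubulins lay between 47.4 and 253.5 CPM, and TUBB was at 0 in both libraries.

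Among the alpha tubulins, TUBA1B took the largest share. TUBA1B (ENSG00000123416) had 219.5 counts in replicate 1 and 148.5 in replicate 2, or 253.5 and 242.9 CPM. TUBA1C (ENSG00000167553) had 77 and 67 counts, or 88.9 and 109.6 CPM. TUBA1A (ENSG00000167552), the isotype best known from neurons and from brain malformations when mutated, had 45 and 29 counts, or 52.0 and 47.4 CPM. The order TUBA1B, TUBA1C, TUBA1A was the same in both libraries, and the intervals of neighbours in that order did not overlap in either library.

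Summed, the alpha tubulins came to 341.5 and 244.5 counts, 394.4 and 400 CPM, with a mean of 397 ± 3.94 CPM (SD, n = 2). The exact Clopper-Pearson intervals were 354 to 439 CPM in replicate 1 and 351 to 453 CPM in replicate 2. That SD is far smaller than the widths of these intervals, so it does not show a stable level. After TMM scaling the sum was 379.8 CPM in replicate 1 and 415.4 CPM in replicate 2. TUBA1B held 64.3% of the alpha tubulin counts in replicate 1 (58.9 to 69.4) and 60.7% in replicate 2 (54.3 to 66.9). TUBA1C held 22.5% (18.2 to 27.4) and 27.4% (21.9 to 33.5), and TUBA1A 13.2% (9.78 to 17.2) and 11.9% (8.09 to 16.6). For each of the 3 genes the intervals of the 2 libraries overlapped, so a difference in the split was not detectable at this depth. TUBA1B had 4.89 times the counts of TUBA1A in replicate 1 (3.53 to 6.90) and 5.10 times in replicate 2 (3.41 to 7.88).

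Among the beta tubulins with counts, TUBB4B led by a wide margin. TUBB4B (ENSG00000188229) had 484 counts in replicate 1 and 320 in replicate 2, or 559 and 523.5 CPM. TUBB2B (ENSG00000137285) had 80 and 52 counts, or 92.4 and 85.1 CPM. TUBB2A (ENSG00000137267), its near-identical neighbour on chromosome 6, had 45 and 28 counts, or 52.0 and 45.8 CPM.

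TUBB4B held 79.5% of the beta tubulin counts in replicate 1 (76.0 to 82.6) and 80.0% in replicate 2 (75.7 to 83.8). TUBB2B held 13.1% (10.6 to 16.1) and 13.0% (9.86 to 16.7), and TUBB2A 7.39% (5.44 to 9.76) and 7.00% (4.70 to 9.96). TUBB4B had 6.05 times the counts of TUBB2B in replicate 1 (4.77 to 7.76) and 6.15 times in replicate 2 (4.58 to 8.42). TUBB2B had 1.78 times the counts of TUBB2A in replicate 1 (1.22 to 2.62) and 1.86 times in replicate 2 (1.15 to 3.05), although the intervals of their levels overlapped in replicate 2. The observed shares were close in both libraries, with an SD of 0.372 percentage points for TUBB4B, 0.275 for TUBB2A and 0.096 for TUBB2B. These SDs are much smaller than the widths of the intervals, so a difference of a few points was not detectable at this depth. The beta tubulins summed to 703.4 CPM in replicate 1 and 654.4 CPM in replicate 2, a mean of 679 ± 34.6 CPM (SD, n = 2), beside 397 CPM for the 3 alpha tubulins. No ratio of alpha to beta subunit was formed, because TUBB was at 0, other isotypes could not be named and coding lengths were not used here.

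**Figure D2:**
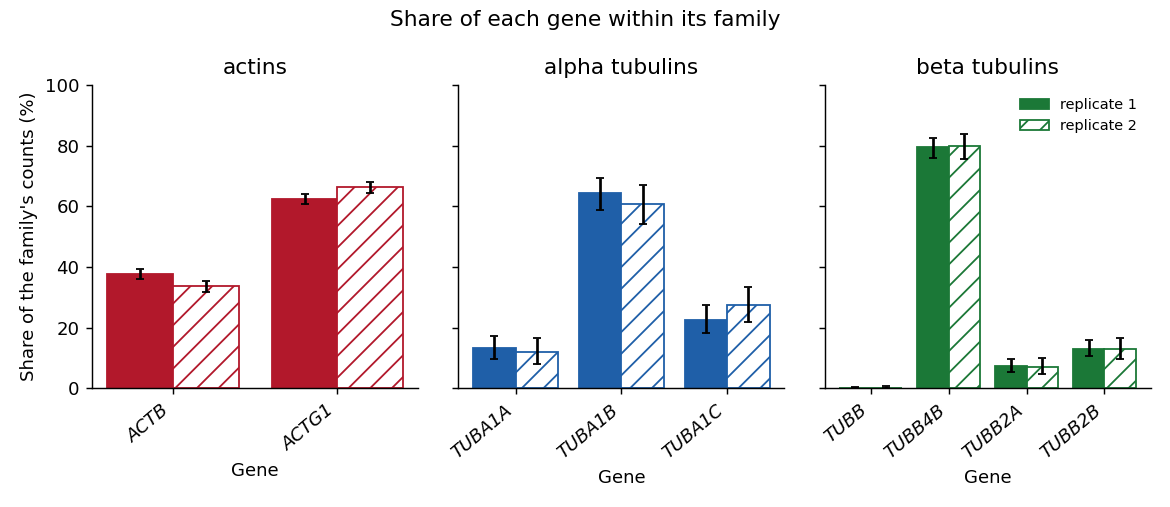
Share of each gene in the counts of its family (percent), for replicate 1 (filled bars) and replicate 2 (hatched bars), with 95% exact Clopper-Pearson intervals. ACTG1, TUBA1B and TUBB4B held the largest shares, at 62.4%, 64.3% and 79.5% in replicate 1 and 66.3%, 60.7% and 80.0% in replicate 2.

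TUBB (ENSG00000196230), the class I beta tubulin that is known to be made in most dividing cells, was listed at 0 in both libraries. With none seen, the limit that counting error sets is 3 counts, or 3.46 CPM in replicate 1 and 4.91 CPM in replicate 2. TUBB lies on chromosome 6 between MDC1 and FLOT1 in the RefSeq annotation of GRCh38, within the region of the major histocompatibility complex. Its place in the deposited table, too, was among IDs without counts. TUBB stood in an unbroken run of 59 IDs at 0, with 54 of them before it and 4 after it. Of the 100 IDs nearest to it in the table, 5 had a count above 0, where 28.5% of all IDs did. Among the 100 IDs nearest to each of the other 9 members, between 29 and 49 had a count above 0. The 3 alpha tubulins stand close together in the table, as do TUBB2A and TUBB2B, so these sets of IDs overlap.

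The sparse stretch was wider than the run. In a stretch of 400 IDs around TUBB, chosen after its values were seen, 20 had a count above 0, and all 400 summed to 1139 counts over both libraries. By the 100 nearest IDs, surroundings at least as empty as those of TUBB were found for 3.13% of the 57720 IDs with 50 on each side. No such share was computed for the stretch of 400. The level of TUBB is therefore not read here as absence of translation, and the beta tubulin sums above lack whatever fragments TUBB gave rise to. Some releases of build hg19 carry further haplotype copies of this region of chromosome 6; whether they were used is not given in the sources used here, and their part in the result was not tested.

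**Figure D3:**
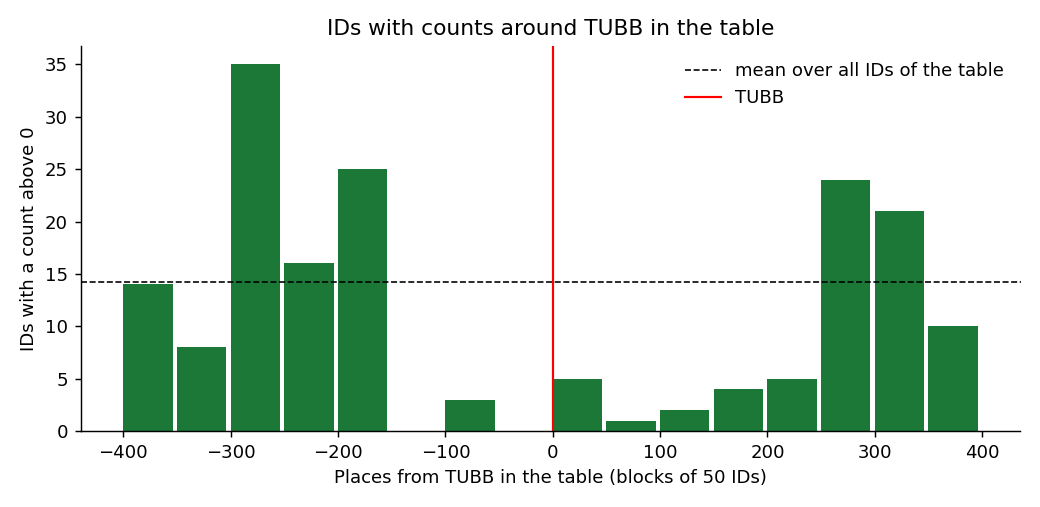
Number of IDs with a count above 0 in either library in blocks of 50 IDs, by place in the table relative to TUBB (red line), with the mean over all IDs of the table dashed. The 50 IDs just before TUBB held none above 0, and the 8 blocks from 150 places before TUBB to 249 after it held 20 in all.

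VIM (ENSG00000026025) had 1264.5 counts in replicate 1 and 792 in replicate 2, or 1460 and 1296 CPM, a mean of 1378 ± 117 CPM (SD, n = 2). It ranked 63 by mean CPM among all IDs, not divided by length. Both IDs next to VIM in the table carried non-whole counts in at least 1 library. The ID just before it, ENSG00000229124.2, had 198.5 and 136.5 counts, and the ID just after it, ENSG00000234961.1, had 341 and 195.5. Each kept a like proportion to VIM in both libraries, 15.7% and 17.2% for the first and 27.0% and 24.7% for the second. The 3 IDs summed to whole numbers, 1804 in replicate 1 and 1124 in replicate 2, of which VIM itself held 70.1% and 70.5%. In the RefSeq annotation of GRCh38, VIM is overlapped by 1 gene, the long noncoding RNA VIM-AS1; the files do not pair either neighbouring ID with a name. Summed as 1 unit, which was tried after seeing the values, the 3 IDs came to 2084 CPM in replicate 1 and 1839 CPM in replicate 2, which is 1.43 and 1.42 times VIM alone.

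TUBA1B was not whole in either library, and VIM and ACTG1 were not whole in replicate 1 but whole in replicate 2. TUBA1B and ACTG1 each had a non-whole ID next to them in the same libraries. TUBA1B and the ID before it, ENSG00000258017.1 with 31.5 and 19.5 counts, summed to 251 and 168. ACTG1 and the ID after it, ENSG00000266077.1 with 10.5 and 17 counts, summed to 2166 and 1902. TUBA1B held 87.5% and 88.4% of its joint sum, and ACTG1 99.5% and 99.1%, so adding the neighbour changed ACTG1 little. The 6 other members above 0, among them ACTB, TUBA1A, TUBA1C and the 3 beta tubulins with counts, were whole in both libraries. The parts after the point did not cancel among the members of a family: the actins summed to 3455.5 in replicate 1, and the alpha tubulins to 341.5 and 244.5. Each of these fractions was 0.5, so any pair of such IDs sums to a whole number, and these sums do not show where a fragment was divided. Over the whole table, 94.5% of the non-whole IDs of replicate 1 and 94.8% of those of replicate 2 had another non-whole ID within 3 places, against 15.6% and 13.1% of the whole-numbered IDs above 0. How fragments that match several paralogs or pseudogenes were counted is not given in the sources used here. The split within a family, such as between TUBB2A and TUBB2B or between the actins, is therefore uncertain.

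**Figure D4:**
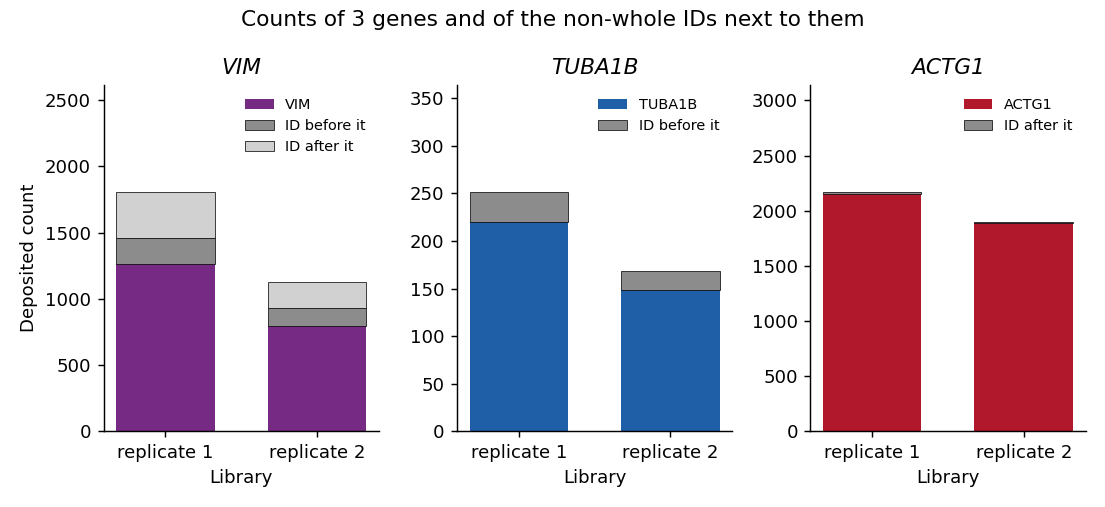
Deposited counts of VIM, TUBA1B and ACTG1 (coloured) with the non-whole IDs directly before or after them in the table stacked on top (grey), by library. VIM held 70.1% and 70.5% of its stack in replicates 1 and 2, TUBA1B 87.5% and 88.4%, and ACTG1 99.5% and 99.1%.

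The remaining comparison was between the 2 vehicle libraries, as the ratio of replicate 1 over replicate 2 after TMM scaling, with an exact binomial interval. It compares these 2 libraries and not conditions, and each batch holds 1 library, so batch and library cannot be told apart. Of the 10 members, 7 reached 100 summed counts, 2 more (TUBA1A and TUBB2A) had 74 and 73, and TUBB had none. None of the 7 had an interval wholly beyond 2-fold, where 0.803% of the 2241 IDs with at least 100 summed counts did. None was wholly beyond 1.5-fold either, against 4.24% of all. Equal levels lay outside the interval for 2 of the 7, against 37.9% of all; both were higher in replicate 2, as were 15.6% of all.

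These 2 were the actins. ACTG1 had a log2 ratio of -0.42 (95% interval -0.51 to -0.33), and 24.4% of the 176 IDs with at least 1000 summed counts differed by as much. ACTB had a log2 ratio of -0.17 (-0.29 to -0.05), and 54.5% of those IDs differed by as much. Neither difference stood outside the spread of IDs of like count. With scaling by library size the log2 ratio of ACTG1 was -0.31 (-0.40 to -0.22), while that of ACTB was -0.06 with an interval from -0.18 to 0.06.

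VIM had a log2 ratio of 0.06 (-0.07 to 0.19); by library size it was 0.17, with an interval from 0.04 to 0.30 that left out equal levels. With TMM scaling the log2 ratios of the tubulins with counts lay within 0.1 of 0, apart from TUBA1C. TUBB4B had a log2 ratio of -0.01 (-0.22 to 0.19) and TUBA1B of -0.04 (-0.35 to 0.27), and both turned to the other sign by library size, at 0.09 and 0.07. TUBB2B had 0.01 (-0.51 to 0.54), TUBA1A 0.02 (-0.68 to 0.75) and TUBB2A 0.07 (-0.64 to 0.81), intervals too wide to show a small difference at this depth. By library size TUBB2B was at 0.12, TUBA1A at 0.13 and TUBB2A at 0.18, each further than 0.1 from 0. TUBA1C had -0.41 (-0.90 to 0.08), and 40.8% of the 1501 IDs with 100 to 299 summed counts differed by as much. The median absolute log2 ratio of the 7 members with at least 100 summed counts was 0.06, beside 0.30 over all 2241 such IDs; by library size it was 0.12, beside 0.33. The members differ from that background in count, so medians were also set beside IDs of like count. For the 3 with at least 1000 summed counts the median was 0.17, beside 0.20 over the 176 such IDs. For the 2 with 300 to 999 it was 0.03, beside 0.26 over 564 IDs. For the 2 with 100 to 299 it was 0.21, beside 0.34 over 1501 IDs. The members' median was the lower in each class, from few members each, and a reason was not tested.

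**Figure D5:**
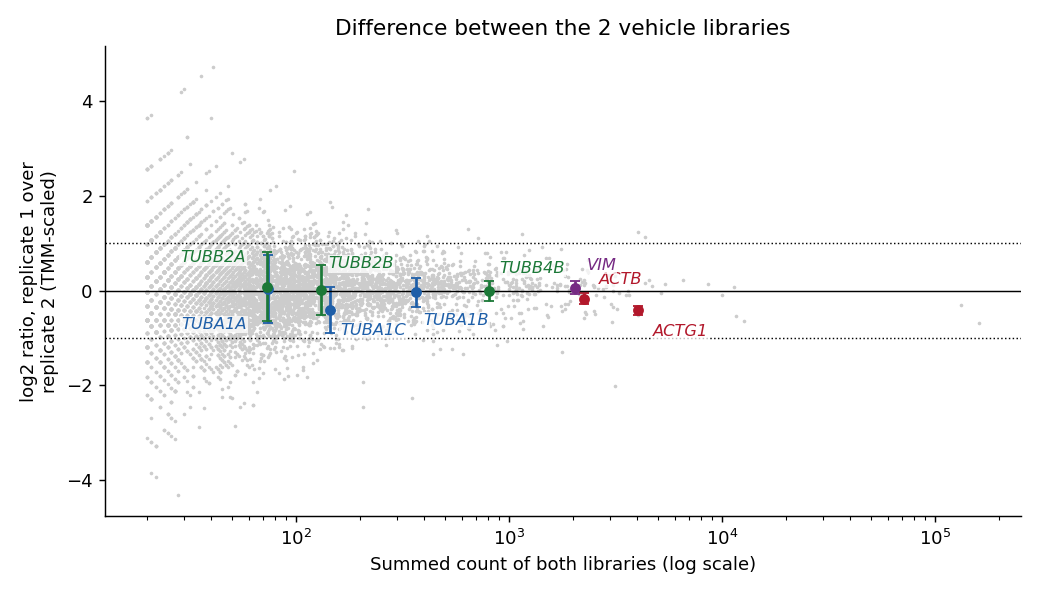
log2 ratio of replicate 1 over replicate 2 after TMM scaling against the summed count (log axis), for IDs with counts in both libraries that sum to at least 20 (grey) and for the 9 members with counts (coloured, with 95% exact binomial intervals); dotted lines mark 2-fold. All 9 lay within 2-fold, with ACTG1 at -0.42 and TUBA1C at -0.41 the furthest from 0.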

How the data were processed

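Ribosome-protected fragments were measured in 2 HEK293 vehicle libraries; per the labels' protocols, RNase I was used to trim the lysates, fragments came from isolated monosomes and ribosomal RNA was not depleted. The deposited table holds estimated counts of fragments of 27 to 29 nt per Ensembl ID, without scaling and not all whole. Per the submitters' processing notes, hg19 was the genome build; the aligner is not given in the sources used here, nor are the counter, the annotation and the strand setting. The 10 members and all settings were chosen with earlier results of these data known, and all members are named.

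Shares and CPM used the deposited values over each library's sum (865838 and 611266), with exact Clopper-Pearson intervals at 95%. Ratios used values rounded to whole counts and conditional exact binomial intervals. TMM factors came from edgeR 4.0.16 under R 4.3.3, over IDs with at least 20 summed counts. The procedure was tested on simulated libraries that varied by counting error alone. Between the deposited libraries, edgeR put the spread beyond counting error at a coefficient of variation of 0.208, over 2241 IDs with at least 100 summed counts. The intervals leave that spread out, and the simulation cannot show how they hold with it. A value counted as whole within 0.001. With 1 group, no contrast or p-value was computed. Alternatives were library-size and DESeq2 1.42.0 scaling, the 2 highest IDs left out, fractions dropped, other limits and each replicate left out. Promoter windows came from RefSeq on GRCh38.p14, whose table lists no Ensembl IDs. Fixed lists of other cytoskeletal genes, protein identity and ratios per residue were left out, since no table pairs Ensembl IDs with symbols and no proteins were used here. Python 3.11.15, scipy 1.17.1, pandas 2.3.3 and matplotlib 3.10.9 were used.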

Additional observations from a re-analysis of the deposited data

How the results depend on the processing

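Leaving the 2 highest IDs out of the library size, which raises each CPM by construction, gave 5449 CPM for the actins, 499.8 for the alpha tubulins, 853 for the beta tubulins and 1730 for VIM. Adding the adjacent non-whole IDs, which was tried after seeing the values, gave 431 CPM for the alpha tubulins and 1961 CPM for VIM. With TMM scaling, the actins came to 3843 CPM in replicate 1 and 4828 in replicate 2, and the alpha tubulins to 379.8 and 415.4. The beta tubulins came to 677.3 and 679.5 CPM, and VIM to 1406 and 1345. The libraries thus lay further apart than by library size for the actins and alpha tubulins, and closer for the beta tubulins and VIM. With either replicate left out, which leaves the other library's value and tests no stability, the actins ranged from 3991 to 4649 CPM, the alpha tubulins from 394.4 to 400, the beta tubulins from 654.4 to 703.4, VIM from 1296 to 1460, and the share of ACTB from 33.7% to 37.6%. No member was called beyond the fold limit under any of the 7 alternatives run, among them a 1.5-fold limit. The alternative 99% interval is wider and could not have added a call. With the main rule 0.803% of all 2241 IDs were called, so none among 7 members does not set them apart. The median absolute log2 ratio of the members was 0.12 by library size, against 0.06 with TMM. Over all 2241 IDs the median log2 ratio was 0.18 by library size and 0.07 with TMM, and TUBA1B and TUBB4B changed sign. The ratio of alpha to beta tubulin per residue was not run, for want of coding lengths. No paired analysis was possible because there is 1 group. Depth limits TUBA1A and TUBB2A, with 74 and 73 summed counts.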
